A study of Mus musculus with 514 samples.

Results

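Nav1, Rnpep, Elf3, Klhl12, Fam72a, Arl8a, Chit1, Glrx2 and Colgalt2 are 9 of the 55168 named genes in the deposited full-length expression table, and all lie on mouse chromosome 1, which also carries Nr5a2. They were selected on measured values: each is a gene on the same chromosome as Nr5a2 whose level had been seen to differ between Nr5a2 mutant and control oocytes or embryos in these data. The members were thus chosen by the mutant against control differences, which are given below as a description, with standard errors but no p-value, and nothing is supported by them.

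Nr5a2 encodes an orphan nuclear receptor that binds DNA as a monomer and is known for its roles in steroidogenic tissues and in the early embryo. In a mouse line, DNA that flanks an altered allele is inherited together with it, so variants of the strain in which the allele was made can travel with it over several megabases. The 9 genes have unrelated functions. Rnpep is an aminopeptidase, Chit1 a chitinase, Glrx2 a mitochondrial glutaredoxin and Colgalt2 a collagen galactosyltransferase. Nav1 encodes a microtubule-binding protein of growing cell edges, Arl8a a small GTPase that moves lysosomes, Klhl12 an adaptor of the cullin 3 ubiquitin ligase, Elf3 an epithelial ETS transcription factor, and Fam72a a protein that binds the uracil glycosylase Ung.

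The study measured poly-A RNA in single mouse oocytes and embryos with a full-length method derived from FLASH-seq, in which primers for genotyping were present while the cDNA was amplified. MII oocytes comprised 9 Nrpp, 18 NrHet and 12 NrKO libraries. In the deposited headers Nrpp controls carry wild-type or floxed alleles alone, NrHet controls are heterozygous for the Nr5a2 deletion, and NrKO lack Nr5a2. Embryos at the early 2-cell stage (E2C) comprised 21 mz_Nrpp, 29 mz_NrHet, 22 mz_NrKO, 12 z_NrKO and 18 m_NrKO libraries, where m is loss in the mother's germ line, z is loss in the embryo and mz is both. Late 2-cell embryos (L2C) comprised 7 mz_DHet, 10 mz_EKO, 10 mz_NrKO, 6 mz_DKO, 7 z_NrHet and 6 z_NrKO libraries. At the 4-cell stage (4C) there were 6 mz_DHet, 4 mz_EKO, 5 mz_NrKO and 10 mz_DKO libraries, and at the 8-cell stage (8C) 21 mz_DHet libraries and 10 of each mutant genotype (mz_EKO, mz_NrKO, mz_DKO). DHet controls are heterozygous for deletions of both Nr5a2 and Esrrb, EKO lack Esrrb, and DKO lack both genes. The Cre driver, the deleted exons, the strain of the altered alleles, the age of the animals, the mothers and litters, and whether EKO embryos carry an altered Nr5a2 allele are not given in the sources used here. As libraries are not tied to mothers, the p-values below measure the spread between libraries, some of which may share a mother. With these groups, loss of Nr5a2 and DNA linked to its altered allele cannot be told apart. In the mother, the embryo or both, the loss came with the deleted allele and the DNA that flanks it. For m_NrKO embryos that holds for the mother, as the embryo itself is not labelled as lacking Nr5a2. Nrpp controls can carry floxed alleles, which are altered alleles as well.

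Depth is unknown, since the table holds TPM, transcript abundances scaled to a common total in each library. Summed TPM over named genes was 814735 to 995883 per library, and 10655 to 15971 genes were above 1 TPM. No pair of the 263 full-length libraries was identical. The gene-level Nr5a2 value counts all exons. Its mean was 50.3 TPM in Nrpp, 59.1 in NrHet and 50.5 in NrKO oocytes. NrKO was thus below NrHet but not below Nrpp, and the value does not check the deletion. Mean Esrrb at 8C was 47.8 TPM in mz_DHet, 18.04 in mz_EKO, 26.8 in mz_DKO and 58.1 in mz_NrKO. The oocyte marker list summed to 3638 to 7928 TPM in oocytes and 4.62 to 155 TPM at 8C. Among granulosa markers Amh, Fshr, Inha, Ptx3, Tnfaip6 and Foxl2 had a median of 0 in oocytes, whereas Cyp19a1 had a median of 95.7 TPM. Replicate 1 of E2C mz_NrKO had the lowest summed TPM of all libraries, and E2C results are given with and without it.

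In GENCODE vM21 (mm10), Nr5a2 spans chr1:136842571-136960448 on the minus strand. Nav1 (chr1:135434580-135607295, minus), Rnpep (chr1:135262712-135284084, minus), Elf3 (chr1:135253575-135258568, minus) and Arl8a (chr1:135146824-135156269, plus) lie within 1.69 Mb of it. Klhl12 (chr1:134455531-134491018, plus) is 2.35 Mb away, Chit1 (chr1:134111242-134151540, plus) 2.69 Mb and Fam72a (chr1:131527903-131539872, plus) 5.30 Mb, all on the side of lower coordinates. Glrx2 (chr1:143716338-143749676, plus) is 6.76 Mb and Colgalt2 (chr1:152399830-152510695, plus) 15.4 Mb away on the other side. The gene Gm26642 on the plus strand overlaps both Rnpep and Elf3, Gm4793 on the plus strand overlaps Nav1, and on the minus strand Gm26280 overlaps Arl8a and Gm15618 overlaps Colgalt2. Whether the counting used strand is not given in the sources used here, so reads from such pairs cannot be told apart. The selection rule states neither a distance nor a size. Just inside it, Fam72a had a log2 fold change of −0.39 ± 0.08 (SE) in NrKO against NrHet oocytes, and Colgalt2 was the farthest from Nr5a2. Just outside it, the protein-coding gene Rabif, 2.33 Mb from Nr5a2, had a log2 fold change of 0.64 ± 0.14 in NrKO against Nrpp oocytes, and the processed pseudogene Gm5837, 2.97 Mb away, had −1.72 ± 0.36 in mz_NrKO against mz_NrHet at E2C.

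Over all days, Chit1 had its lowest E2C medians in the groups whose embryos lacked Nr5a2, but it was called in no 8C comparison. Rnpep was lower in mutants at early and higher at later stages. As both recur in the results below, the upstream sequence of these 2 genes is shown. These are the 250 bases before the start of transcription in RefSeq GRCm38.p6, 5′ to 3′ on each gene's own strand, Chit1 from chr1:134110992-134111241 (plus strand) and Rnpep from chr1:135284085-135284334 (minus strand). Capitals mark a match to CAAGGTCA, a site bound by NR5A receptors, read here on the opposite strand.

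Chit1: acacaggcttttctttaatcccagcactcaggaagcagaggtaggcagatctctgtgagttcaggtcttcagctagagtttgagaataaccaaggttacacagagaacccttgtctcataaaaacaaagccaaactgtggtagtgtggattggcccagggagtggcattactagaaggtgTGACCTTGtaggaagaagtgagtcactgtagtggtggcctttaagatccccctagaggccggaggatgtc

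Rnpep: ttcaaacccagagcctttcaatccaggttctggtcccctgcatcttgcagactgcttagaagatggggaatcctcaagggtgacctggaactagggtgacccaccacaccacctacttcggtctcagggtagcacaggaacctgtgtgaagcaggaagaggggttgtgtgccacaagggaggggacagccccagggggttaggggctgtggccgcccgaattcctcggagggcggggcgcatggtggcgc

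Promoter windows (250 bases before to 50 after the start) were found for 8 of the 9 genes. Both strands were searched for CAAGGTCA and CAAGGCCA. Chit1 was the single match among the 8, on the strand opposite to the gene, with the last base of CAAGGTCA, the first capital in the printed stretch, at −70 from the start. CAAGGTCA was present in 512 of 32851 windows (1.56%), CAAGGCCA in 790 (2.4%) and either in 1287 (3.92%). The printed Chit1 stretch had a GC content of 48.0% with 1 CG, against 60.4% for Rnpep, and the median over all windows was 52.4%. A match of letters is not evidence of binding.

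In MII oocytes, 5 of the 6 genes that passed the filter on low values differed between NrKO and NrHet: Nav1, Rnpep, Elf3 and Fam72a were lower and Klhl12 was higher. A gene was tested if it reached 5 TPM in a number of libraries no smaller than the smallest group of that stage, and it was called at a Benjamini-Hochberg adjusted p under 0.05 in limma over all genes tested. Over all genes 0.212% were called in this comparison, 0.112% lower and 0.101% higher. Against Nrpp 4 of 6 were called (Nav1, Rnpep, Elf3 and Klhl12), with 1.2% called over all genes, 0.559% lower and 0.637% higher. The median log2 fold change of the 6 was −0.96 against NrHet and −1.04 against Nrpp, beside 0.00 and 0.02 over all genes. Chit1, Glrx2 and Colgalt2 were below the filter in oocytes.

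Nav1 RNA was 8.91, 8.03, 17.8, 16.03, 9.97, 23.3, 22.2, 26.0 and 13.7 TPM in the 9 Nrpp oocytes. In NrHet it was 3.03 at the lowest, 15.97 at the median and 37.0 at the highest, and in NrKO 0.939, 2.71 and 7.48 TPM. All 12 NrKO values lay under the lowest Nrpp value, and all 12 under the NrHet median, while 1 NrHet library, replicate 17 at 3.03 TPM, lay within the NrKO range. The log2 fold change was −1.98 ± 0.23 (SE) against NrHet and −2.13 against Nrpp.

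Rnpep was 26.3, 38.6 and 43.7 TPM (lowest, median, highest) in Nrpp, 13.3, 32.4 and 41.7 in NrHet, and 10.7, 17.5 and 23.4 in NrKO. NrKO did not overlap Nrpp, with a ratio of means of 0.468, and overlapped NrHet. For Nav1 and Rnpep, as for every other pair of groups without overlap below, the share of all genes without overlap is not given. Elf3, an epithelial regulator low in oocytes, was 2.01, 6.42 and 15.7 TPM in Nrpp, 2.04, 5.78 and 9.73 in NrHet, and 0, 1.59 and 4.49 in NrKO, of which 2 of 12 were listed at 0. Its groups overlapped, although all 12 NrKO values were under both control medians. Klhl12 went the other way, at 45.8, 68.3 and 111 TPM in Nrpp, 48.8, 73.5 and 116 in NrHet and 83.1, 106 and 158 in NrKO, with all 12 NrKO values above both control medians. Fam72a and Arl8a overlapped between all groups. Arl8a had a larger difference (−1.11 ± 0.28 against NrHet) than Fam72a (−0.39 ± 0.08) but a wider spread, and was not called.

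**Figure D1:**
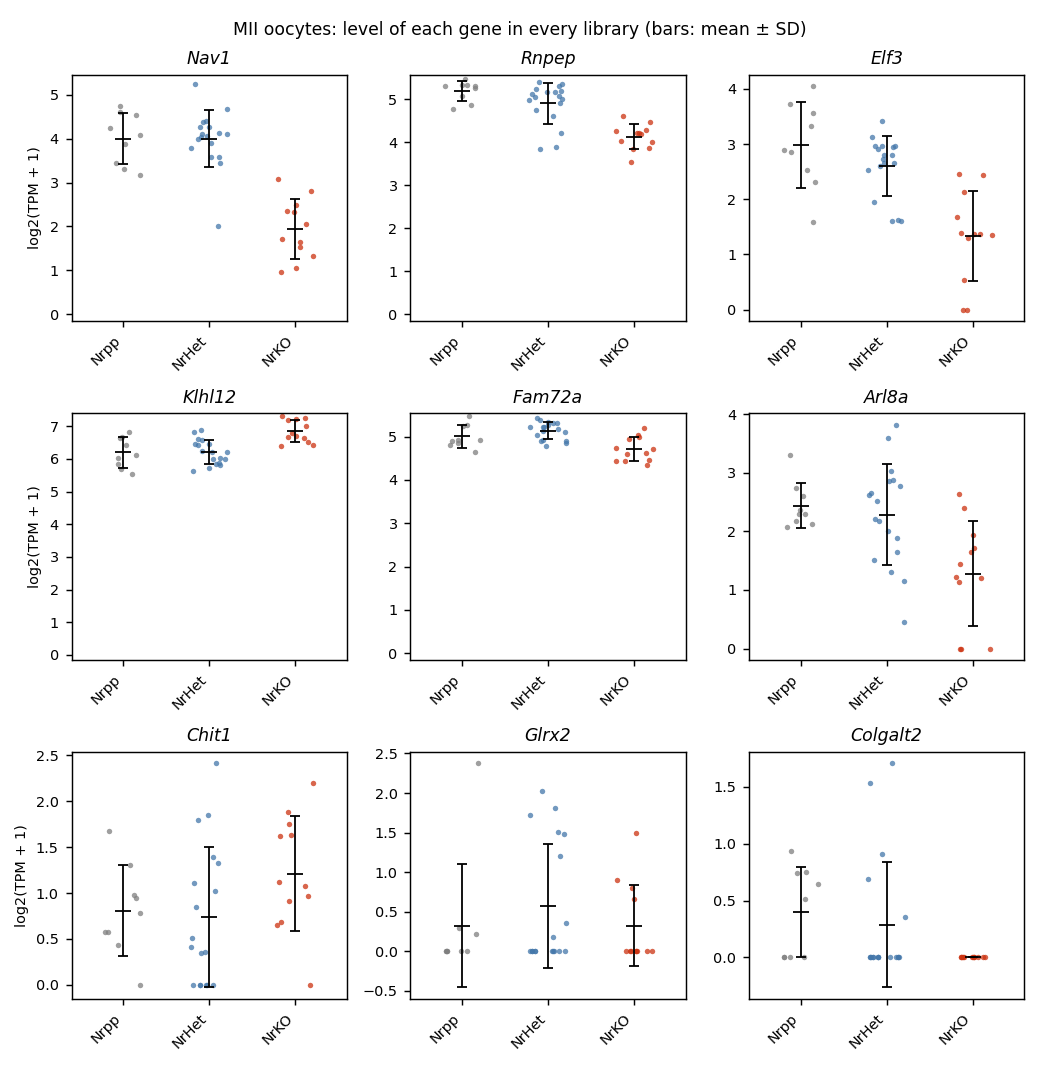
Level of each of the 9 genes in every MII oocyte library, as log2(TPM + 1) on the vertical axis and genotype on the horizontal axis. Points are libraries (9 Nrpp, 18 NrHet, 12 NrKO) and bars are the mean ± SD. All 12 NrKO oocytes lie below all 9 Nrpp oocytes for Nav1 and Rnpep. Colgalt2 is listed at 0 in all 12 NrKO oocytes, and also in every Nrpp and NrHet oocyte of 5 June.

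Replicates 16, 17 and 18 of NrHet stood apart from all other NrHet oocytes in Rnpep and Elf3, and from those of the same day in Klhl12. Rnpep was 13.8, 17.8 and 13.3 TPM in them, within the NrKO range and below every other NrHet library, whose lowest was 23.4. Elf3 was 2.04, 2.06 and 2.07 TPM, while the other 15 NrHet libraries lay between 2.87 and 9.73. Klhl12 was 86.2, 97.9 and 87.0 TPM, inside the NrKO range, whereas the 9 other NrHet libraries collected on the same day, 5 June, held 48.8 to 73.3 and the 6 of 20 June 73.7 to 116. Nav1 was 16.3, 3.03 and 11.0 TPM and Fam72a 39.1, 26.6 and 42.4 TPM, so those genes did not set the 3 apart as a group. Without them, chosen after the values were seen, the log2 fold change of NrKO against NrHet was −2.15 ± 0.19 for Nav1, −0.97 ± 0.10 for Rnpep, −1.42 ± 0.24 for Elf3 and 0.63 ± 0.10 for Klhl12, and 5 of 6 were called, with 0.192% called over all genes. Whether the 3 share a mother, carry a recombined chromosome or carry a wrong genotype label was not tested, and the NrHet values above include them unless stated otherwise.

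NrHet against Nrpp is a comparison that the selection did not use, although it shares its oocytes with those that did. None of the 6 genes tested was called (limma, adjusted p at or above 0.769), with 0.0335% called over all genes and 662 of 8952 genes at an unadjusted p under 0.05. The largest difference was in Elf3, −0.50 ± 0.29 (adjusted p = 0.769, 11 of 18 NrHet oocytes below the Nrpp median). For Rnpep it was −0.22 ± 0.16 (adjusted p = 0.808, 15 of 18 below). Without NrHet replicates 16 to 18 these were −0.32 ± 0.27 and −0.08 ± 0.11, and again 0 of 6 were called, with 0.0339% of all genes called and 678 at an unadjusted p under 0.05. Missing the threshold does not show that heterozygous oocytes equal Nrpp.

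Within 10 Mb of Nr5a2, 5 of 61 tested genes (8.2%) were called in NrKO against NrHet oocytes. These were the members already named, and none of the 55 other tested genes was called. By distance, 3 of 16 genes were called at 0 to 2 Mb, 1 of 25 at 2 to 5 Mb, 1 of 20 at 5 to 10 Mb, and none of 50, 167 and 272 at 10 to 20, 20 to 50 and 50 to 200 Mb. On other chromosomes 13 of 8269 (0.157%) were called. The called genes lay among uncalled ones: 13 of the 16 tested genes at 0 to 2 Mb were not called. Against Nrpp 5 of 61 were called, Rabif being the single gene outside the list. The called genes were picked for these differences, so the counts describe the region and test nothing about it.

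**Figure D2:**
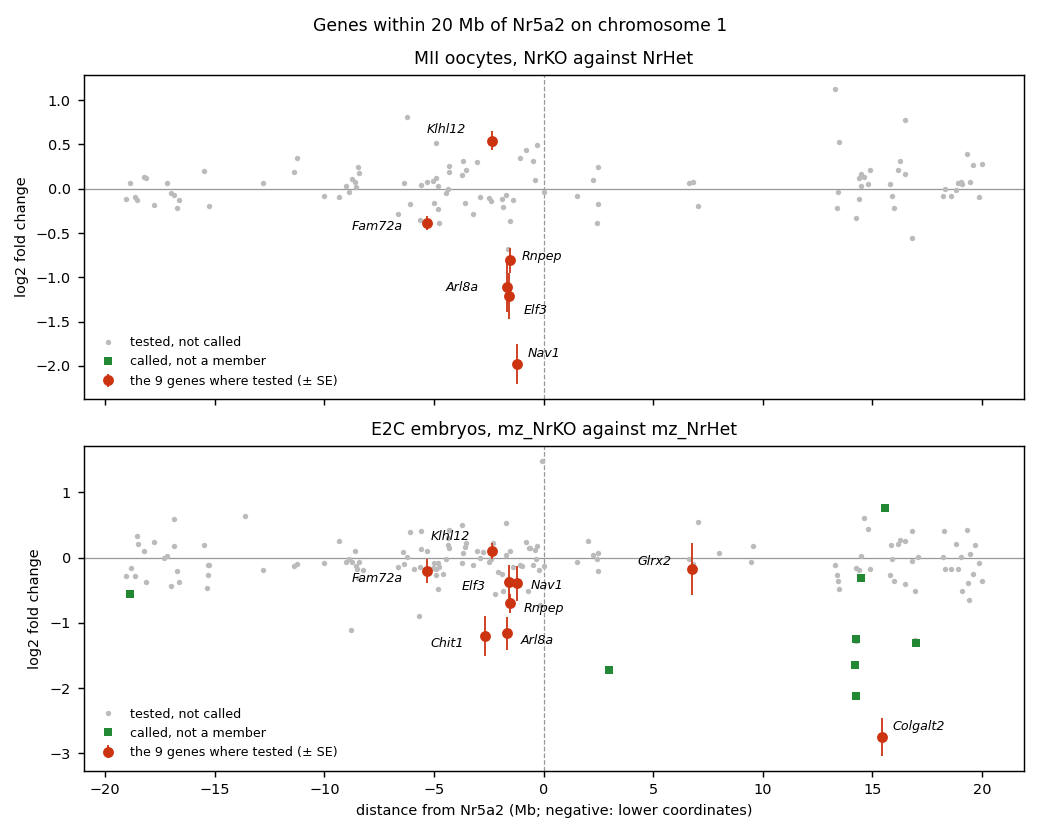
Log2 fold change of every tested gene within 20 Mb of Nr5a2 against its distance in Mb, for NrKO against NrHet oocytes (top) and mz_NrKO against mz_NrHet E2C embryos (bottom). Red points with SE bars are the 9 genes where tested, green squares are other called genes and grey points are uncalled genes. In oocytes the called genes lie at 1.24 to 5.30 Mb on the side of lower coordinates, and in E2C embryos Colgalt2 at 15.4 Mb has the lowest value.

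At E2C all 9 genes passed the filter, and the genes called differed between embryos that lacked Nr5a2 in the germ line of the mother, in the embryo, or in both. Colgalt2, Chit1, Arl8a and Rnpep (4 of 9) were lower in mz_NrKO than in mz_NrHet, where 5.17% of all genes were called and 4.5% were called lower. Colgalt2, Arl8a and Rnpep (3 of 9) were lower in m_NrKO, with 0.245% called over all genes and 0.153% called lower. In z_NrKO none of 9 was called against mz_NrHet, where 0% of all genes was called and 701 of 13040 had an unadjusted p under 0.05. Against mz_Nrpp, Chit1 alone was called in z_NrKO, with 0.138% called over all genes and 0.069% called lower. The same 4 and 3 genes were called in mz_NrKO and m_NrKO against mz_Nrpp, with 1.79% and 0.222% called over all genes (1.49% and 0.153% called lower). Compared directly, mz_NrKO and z_NrKO differed in Colgalt2 (1 of 9 called), and neither m_NrKO against z_NrKO nor mz_NrKO against m_NrKO had a member called (0 of 9 each), the last beside 0% of all genes. The median log2 fold change of the 9 against mz_NrHet was −0.39 in mz_NrKO, −0.52 in m_NrKO and 0.03 in z_NrKO, beside −0.09, −0.02 and 0.03 over all genes.

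Colgalt2, which glycosylates collagen, was nearly silent in oocytes: listed at 0 in 13 of 18 NrHet and in 12 of 12 NrKO, with a highest value of 2.26 TPM. The zeros followed the collection day. It was listed at 0 in every oocyte of 5 June (3 Nrpp, 12 NrHet and 6 NrKO). On 20 June it was listed at 0 in 1 of 6 Nrpp, 1 of 6 NrHet and 6 of 6 NrKO. At E2C it was 0, 7.81 and 49.3 TPM (lowest, median, highest) in mz_Nrpp and 1.15, 7.91 and 33.0 in mz_NrHet. It was listed at 0 in 21 of 22 mz_NrKO embryos, and the remaining embryo held 0.309 TPM. mz_NrKO and mz_NrHet did not overlap, although 2 of 21 mz_Nrpp embryos were listed at 0 as well. How many of all genes had no overlap is not given here. z_NrKO had 0, 2.78 and 16.8 TPM and m_NrKO 0, 0.960 and 12.1, both between the controls and mz_NrKO. The log2 fold change against mz_NrHet was −2.75 ± 0.29 in mz_NrKO, −1.72 in m_NrKO and −1.21 ± 0.34 in z_NrKO, and between mz_NrKO and z_NrKO it was −1.54 ± 0.37, called beside 0.192% of all genes (0.146% called lower). In m_NrKO the level moved with the collection day: the mean was 0.424 TPM in 7 embryos of 1 August, 2.48 in 4 embryos of 7 November and 4.53 in 7 embryos of 14 November. At L2C Colgalt2 was no longer near 0 in mz_NrKO, with 0, 1.18 and 8.61 TPM against 0, 0.563 and 5.05 in mz_DHet.

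Chit1, a secreted chitinase, had its lowest medians in the groups in which the embryo itself lacked Nr5a2. Its level was 0.880, 15.9 and 69.3 TPM in mz_Nrpp, 1.16, 12.1 and 53.7 in mz_NrHet and 0, 9.77 and 38.0 in m_NrKO. It was 0.446, 3.89 and 13.4 TPM in z_NrKO and 0.148, 4.74 and 14.9 in mz_NrKO. The groups overlapped, but 12 of 12 z_NrKO and 22 of 22 mz_NrKO embryos were below the mz_Nrpp median, against 14 of 18 m_NrKO. Against mz_NrHet the log2 fold change was −1.20 ± 0.31 in mz_NrKO, −1.29 ± 0.37 in z_NrKO (not called) and −0.52 in m_NrKO (not called). The difference between m_NrKO and z_NrKO was 0.77 ± 0.42 and was not called.

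Arl8a and Rnpep had their lowest medians in the groups in which the mother lacked Nr5a2. Arl8a, which links lysosomes to kinesin motors, was 5.86, 18.5 and 65.0 TPM in mz_Nrpp, 1.28, 18.2 and 66.4 in mz_NrHet and 4.47, 21.0 and 54.6 in z_NrKO. It was 0, 7.51 and 21.0 TPM in m_NrKO and 0.823, 6.07 and 15.7 in mz_NrKO. All 22 mz_NrKO and 17 of 18 m_NrKO embryos were below the mz_NrHet median, against 5 of 12 z_NrKO. The difference was −1.16 ± 0.25 in mz_NrKO, −1.40 in m_NrKO and 0.13 in z_NrKO, and m_NrKO against z_NrKO gave −1.54 ± 0.33, not called where 0.0153% of all genes was called. Without mz_NrKO replicate 1, which shares the fit, 1 of 9 was called in m_NrKO against z_NrKO, with the share over all genes in that fit not given. Rnpep had means of 53.4, 44.5 and 42.8 TPM in mz_Nrpp, mz_NrHet and z_NrKO and of 20.7 and 22.1 TPM in m_NrKO and mz_NrKO. All 18 m_NrKO and all 22 mz_NrKO embryos were below the mz_NrHet median. For Rnpep, m_NrKO against z_NrKO gave −0.54 ± 0.20, not called. In NrKO oocytes the mean was 16.9 TPM for Rnpep and 1.86 TPM for Arl8a.

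The collection day moved with these E2C groups. On 1 August, which holds all 5 groups, mean Rnpep was 33.2 TPM in mz_Nrpp, 26.3 in mz_NrHet, 19.2 in z_NrKO, 17.4 in m_NrKO and 19.9 in mz_NrKO, so z_NrKO was as low as the groups without maternal Nr5a2. Mean Arl8a on that day was 12.8, 9.37, 8.15, 5.65 and 7.99 TPM in the same order, and mean Chit1 was 18.5, 11.2, 8.18, 7.59 and 6.04 TPM. On 7 November the 8 mz_NrKO embryos did not overlap the 7 mz_NrHet embryos for Rnpep (highest 39.3, lowest 45.9) or Arl8a (highest 11.6, lowest 21.2), with the share of all genes without overlap not given. Of the 12 z_NrKO embryos 5 are from 11 January, a day with no m_NrKO or mz_NrKO embryo. The fits hold the day as a factor, and the part of the day in the differences between these mutant groups was not tested.

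**Figure D3:**
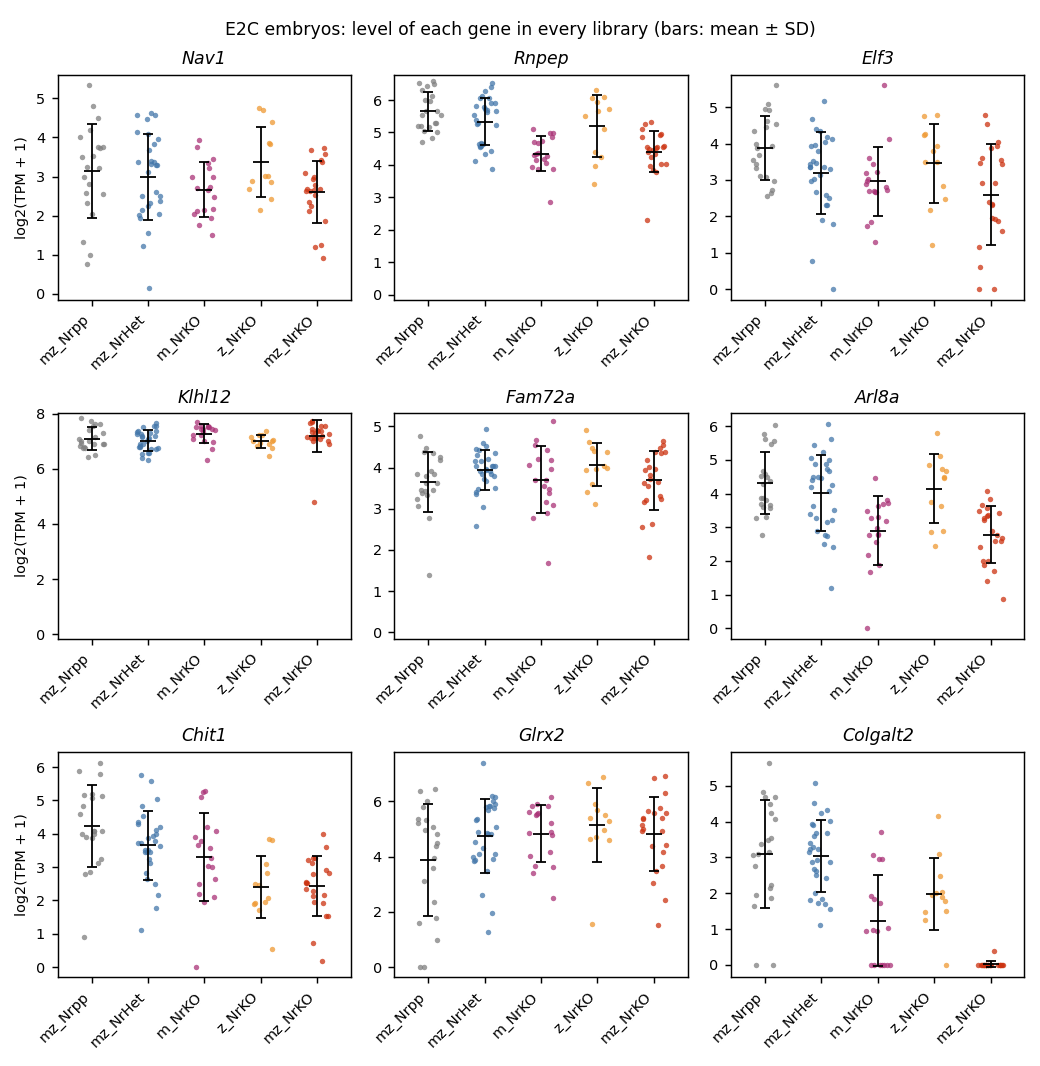
Level of each of the 9 genes in every E2C library, as log2(TPM + 1) on the vertical axis, by genotype on the horizontal axis (21 mz_Nrpp, 29 mz_NrHet, 18 m_NrKO, 12 z_NrKO, 22 mz_NrKO). Points are embryos and bars are the mean ± SD. Over all days Rnpep and Arl8a have their lowest means in m_NrKO and mz_NrKO and Chit1 in z_NrKO and mz_NrKO, and Colgalt2 is listed at 0 in 21 of 22 mz_NrKO embryos.

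Nav1, Elf3, Klhl12 and Fam72a, called in oocytes, were not called at E2C in any of these comparisons, and neither was Glrx2. Mean Nav1 was 16.4 TPM in NrHet oocytes, 9.22 in mz_NrHet embryos and 5.91 in mz_NrKO embryos. These pooled means cover different days: on 7 November all 8 mz_NrKO embryos (highest 7.49, mean 4.44) lay below all 7 mz_NrHet embryos (lowest 11.9, mean 19.1), while on 1 August the means were 6.66 in mz_NrKO and 5.01 in mz_NrHet. Klhl12 was 133 TPM in mz_NrHet and 153 in mz_NrKO. In mz_NrHet against mz_Nrpp, which the selection did not use but which shares control embryos with it, 0 of 9 were called by limma, with 0.268% called over all genes and 1069 of 13040 at an unadjusted p under 0.05. Rnpep differed there by −0.17 ± 0.15 (adjusted p = 0.854, 14 of 29 mz_NrHet below the mz_Nrpp median) and Chit1 by −0.41 ± 0.32 (adjusted p = 0.834, 20 of 29 below).

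A list of 6 genes of the 2-cell transcription burst moved with the E2C groups. Their summed level had a median of 717 TPM in mz_Nrpp (112 to 2564), 779 in mz_NrHet (34.6 to 2515), 368 in z_NrKO (76.7 to 2836), 256 in m_NrKO (10.8 to 1384) and 136 in mz_NrKO (9.41 to 604). Its part in the levels of Colgalt2, Chit1, Arl8a and Rnpep was not tested. Without mz_NrKO replicate 1 the log2 fold change against mz_NrHet was −2.76 for Colgalt2, −1.08 for Chit1, −1.08 for Arl8a and −0.61 for Rnpep, and the same count of 4 was called. Within 10 Mb of Nr5a2, 4 of 90 tested genes (4.44%) were called in mz_NrKO against mz_NrHet, 3 of them members. The number was 10 without replicate 1. The share called over all genes in that fit is not given here, so the rise cannot be set against the rest of the genome. At 10 to 20 Mb 8 of 74 (10.8%) were called, among them Colgalt2 and its neighbour Rgl1, which was higher by 0.75 ± 0.24, and on other chromosomes 607 of 11952 (5.08%). By comparison, 17 of 136 tested genes (12.5%) within 10 Mb of Esrrb on chromosome 12 were called in the same test.

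At L2C the 9 genes were all tested, and 0 of 9 was called in mz_NrKO, mz_DKO or z_NrKO against their heterozygous controls by limma, where 0.127%, 0.141% and 0.099% of all genes were called and 1143, 1181 and 1207 of 14147 had an unadjusted p under 0.05. Chit1 was listed at 0 in most L2C embryos without Nr5a2, and also in 4 of the 5 mz_DHet embryos of 22 May. It was 0, 0, 3.39, 0, 0 and 5.75 TPM in the 6 z_NrKO embryos, and 2.50, 7.89, 23.3, 0, 36.3, 36.3 and 7.34 TPM in the 7 z_NrHet embryos. All 6 z_NrKO values were below the z_NrHet median of 7.89, and the groups overlapped through 1 z_NrHet embryo at 0. In mz_DKO it was 3.61, 0, 0, 0, 0 and 4.41 TPM, and 7 of 10 mz_NrKO embryos were listed at 0.

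Chit1 was highest of all groups in L2C mz_EKO embryos, which lack Esrrb. They held 9.46, 36.4 and 117 TPM (lowest, median, highest), whereas the 7 mz_DHet embryos held 0, 0, 0, 0, 1.05, 16.1 and 22.3. The mz_DHet values followed the collection day: the 5 lowest were the 5 embryos of 22 May, a day with no mz_EKO embryo, and the other 2 were those of 8 March. On 8 March the 8 mz_EKO embryos held 11.2 to 117 TPM, so the groups overlapped, and the log2 fold change was 1.09. In mz_EKO against mz_DHet, which the selection did not use but which shares the mz_DHet embryos, the log2 fold change was 2.68 ± 0.91 (limma with date as a factor, adjusted p = 0.709, 10 of 10 mz_EKO above the mz_DHet median, which rests on the embryos of 22 May), so it did not pass the correction. Rnpep was lower there by −1.50 ± 0.61 (adjusted p = 0.734, 10 of 10 below the median). 0 of 9 was called and 0% of all genes, with 947 at an unadjusted p under 0.05. mz_DKO and mz_EKO did not overlap for Chit1 (−4.01 ± 0.78), the single member called in that comparison beside 0.177% of all genes (0.0919% called lower). How many of all genes had no overlap is not given here.

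Glrx2 and Arl8a also differed in level at L2C without passing the test. Glrx2 in all 6 z_NrKO embryos was above the z_NrHet median (1.28 ± 0.30), and the difference was 0.82 in mz_NrKO and 0.66 in mz_DKO. The authors' deposited table gives Glrx2 a log2 fold change of 1.39 (FDR 0.034) in late 2-cell z_NrKO. Arl8a was 4.67, 7.23 and 13.1 TPM (lowest, median, highest) in z_NrKO and 0, 19.3 and 26.8 in z_NrHet, with all 6 z_NrKO embryos below the z_NrHet median (−0.81 ± 0.60). In mz_NrKO it was −1.65 ± 0.71 and in mz_DKO −2.24 ± 0.65. All 10 mz_NrKO embryos are of 8 March, a day with only 2 mz_DHet embryos. Mean Arl8a on that day was 24.8 TPM in the 2 mz_DHet, 10.5 in mz_NrKO and 7.95 in 4 mz_DKO. On 22 May it was 7.89 TPM in 5 mz_DHet, below the mz_NrKO mean, and 2 mz_DKO embryos were listed at 0. Klhl12 held mean levels between 84.3 and 125 TPM over the 6 L2C groups, and all 10 mz_NrKO embryos were below the mz_DHet median (−0.27 ± 0.24).

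At 4C 7 of the 9 genes were tested, and Glrx2, Rnpep and Chit1 differed. Glrx2, which reduces glutathionylated proteins in mitochondria, was called in mz_NrKO (1 of 7, beside 0.675% of all genes and 0.261% called higher), and Glrx2, Rnpep and Chit1 in mz_DKO (3 of 7, beside 2.58%, of which 1.68% was called lower and 0.897% higher). Without mz_NrKO replicate 2, 0 of 7 was called in mz_NrKO, with the share over all genes in that fit not given. Glrx2 was 291, 168, 100.3, 152, 149.9 and 99.3 TPM in the 6 mz_DHet embryos and 275, 419.5, 357, 161 and 390.0 TPM in the 5 mz_NrKO embryos. The groups overlapped, as mz_DHet replicate 1 lay above mz_NrKO replicates 1 and 4 and mz_DHet replicate 2 above mz_NrKO replicate 4, and the log2 fold change was 1.31 ± 0.28. In mz_DKO it was 161, 293 and 496 TPM (0.98 ± 0.22), with 10 of 10 embryos above the mz_DHet median. Rnpep was 256, 220.1, 197, 139, 254 and 267 TPM in mz_DHet and 462, 328, 586, 337 and 299.8 TPM in mz_NrKO. Those groups did not overlap, with a ratio of means of 1.81, although mz_NrKO Rnpep (0.81) was not called. The share of all genes without overlap is not given here. On 17 June the mean was 395 TPM in 2 mz_NrKO and 213 in 5 mz_DHet. On 22 May it was 408 TPM in 3 mz_NrKO, 340 in 3 mz_EKO and 267 in 1 mz_DHet. The direction in mz_NrKO is opposite to that in NrKO oocytes. Chit1 was 7.10, 17.1, 11.1, 32.0, 12.8 and 0 TPM in mz_DHet, whereas 6 of 10 mz_DKO embryos were listed at 0 and the highest held 4.49 (−2.70 ± 0.60). Marker lists moved with the 4C groups as well. The 8-cell list of 6 genes summed to a median of 222 TPM in mz_DHet (174 to 258), 114 in mz_NrKO (82.5 to 198) and 142 in mz_DKO (82.9 to 222). Over all 4C libraries its medians were 81.1 TPM for Klf5 and 71.4 for Tfap2c, and at most 4.16 for its other genes. The oviduct list of 5 genes summed to 199 TPM in mz_DHet (70.4 to 211), 344 in mz_NrKO (173 to 394) and 373 in mz_DKO (249 to 498), nearly all of it Epcam, which embryos also express, while Foxj1, Pax8 and Krt7 had a median of 0. Their part in the 4C levels of Glrx2, Rnpep and Chit1 was not tested. Among embryos of 17 June, mean Chit1 was 16.02 TPM in 5 mz_DHet and 1.16 in 9 mz_DKO.

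At 8C Rnpep and Glrx2 were higher in embryos without Nr5a2, and Elf3 was lower with all days in 1 fit but not on each day, at a stage when much of the transcriptome differed. In mz_NrKO 4 of 7 tested genes were called (Rnpep, Glrx2, Elf3 and Arl8a), beside 28.3% of all genes (14.2% lower, 14.1% higher), and in mz_DKO 3 of 7 (Rnpep, Glrx2 and Elf3), beside 33.7% (14.8% lower, 18.9% higher). Glrx2 was 73.6, 134 and 248 TPM in mz_DHet, 181, 289.6 and 626 in mz_NrKO and 229, 411 and 655 in mz_DKO. All 20 mutant embryos were above the mz_DHet median, and 7 of 10 mz_NrKO and 9 of 10 mz_DKO were above the highest mz_DHet embryo. The log2 fold change was 1.14 in mz_NrKO and 1.78 in mz_DKO. Elf3, which marks epithelial differentiation, had group means of 1.67 to 4.07 TPM at 4C and a mean of 208 TPM in 8C mz_DHet. It was 20.8, 209 and 549 TPM in mz_DHet, 15.98, 59.3 and 216 in mz_NrKO and 14.3, 62.7 and 301 in mz_DKO, with 9 of 10 embryos in each mutant group below the mz_DHet median and wide overlap (−1.37 and −1.35). For Elf3 in mz_NrKO this rested on the embryos of 8 March, with means of 52.4 TPM in 6 mz_NrKO and 258 in 15 mz_DHet (−2.45). On 15 July the means were 104 TPM in 3 mz_NrKO and 99.7 in 4 mz_DHet (−0.09), and on 23 February 1 mz_NrKO embryo held 216 against a mean of 54.9 in 2 mz_DHet. Glrx2 in mz_NrKO was 1.42 on 8 March and 0.79 on 15 July. Rnpep was 152 TPM on average in mz_DHet, 233 in mz_NrKO and 283 in mz_DKO (0.58 and 0.76). Nav1 was below the filter at 8C, with means of 2.86 TPM in mz_DHet, 0.726 in mz_NrKO and 1.30 in mz_DKO, and all 10 mz_NrKO embryos were below the mz_DHet median. For Nav1 the authors' deposited table gives a log2 fold change of −2.85 (FDR 1.05e-10) in 8C mz_NrKO.

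Arl8a at 8C was 0.203, 9.96 and 33.6 TPM in mz_DHet and 0, 3.93 and 15.6 in mz_NrKO, with 2 of 10 mz_NrKO embryos listed at 0 and 8 of 10 below the mz_DHet median. The log2 fold change was −1.08 ± 0.40, called. It moved with the collection day: among embryos of 8 March it was −1.86, and among the 4 mz_DHet and 3 mz_NrKO embryos of 15 July 0.32. In mz_DKO it was −0.43, not called. Klhl12 had means of 31.4 to 51.0 TPM in the 8C groups and was called in none of the embryo comparisons. Fam72a differed by 0.87 ± 0.36 in mz_NrKO and 0.69 ± 0.37 in mz_DKO at 8C, neither called. Chit1 was tested at 8C and called in neither mutant. Among embryos of 8 March its mean was 9.10 TPM in 15 mz_DHet, 2.58 in 6 mz_NrKO and 5.92 in 9 mz_DKO. On 15 July the mean was 4.26 TPM in 4 mz_DHet and 0.754 in 3 mz_NrKO. On 23 February 1 mz_NrKO embryo held 10.2 TPM and 1 mz_DKO embryo 3.31, against a mean of 0.170 in 2 mz_DHet.

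**Figure D4:**
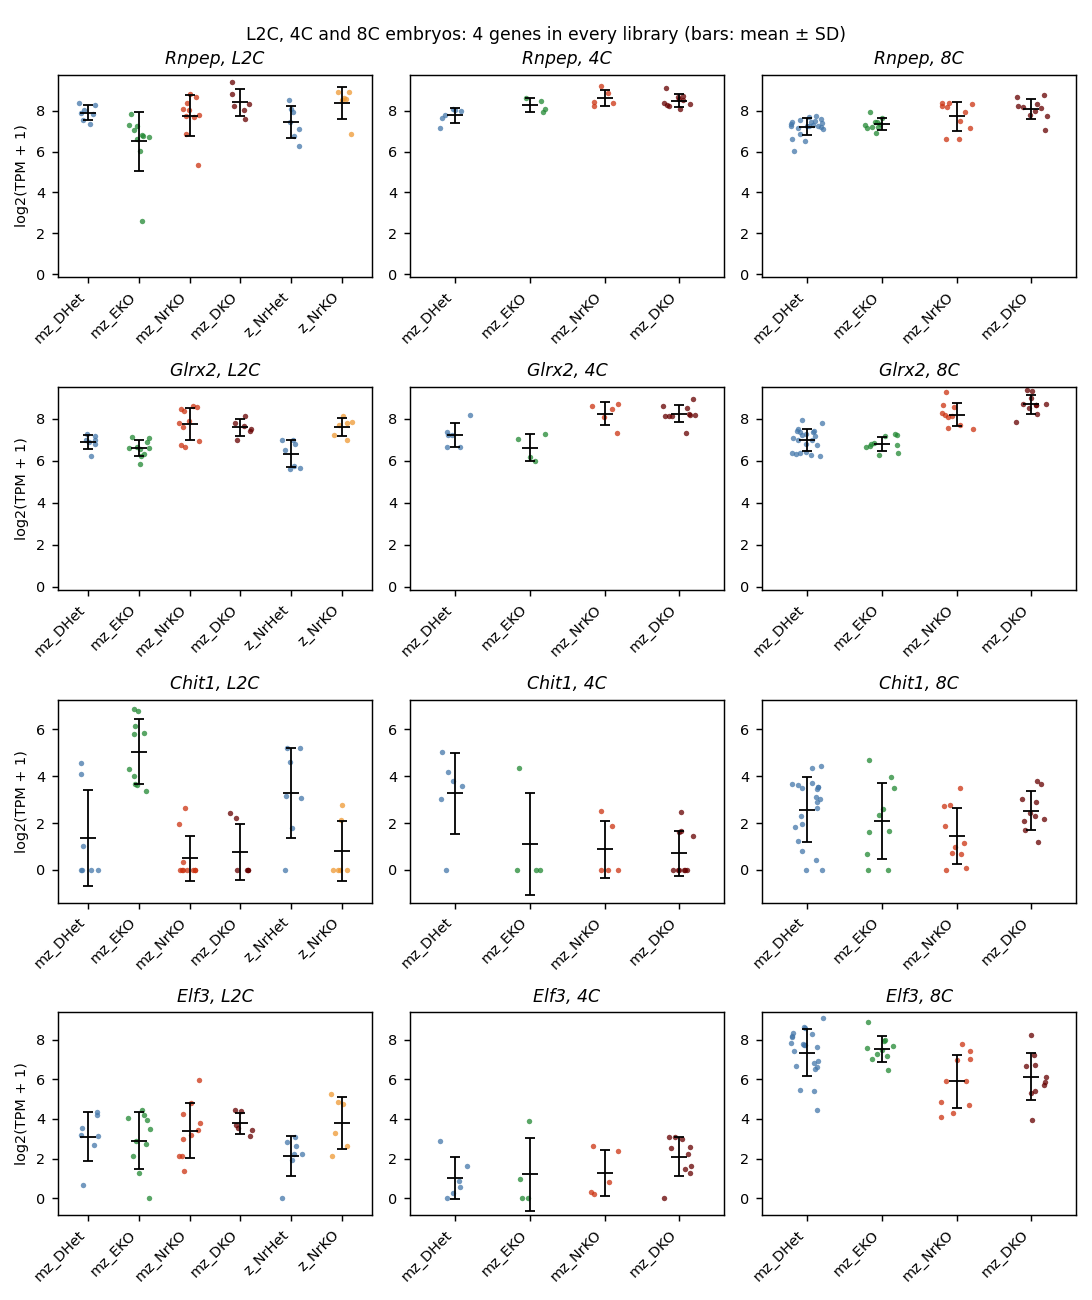
Rnpep, Glrx2, Chit1 and Elf3 in every L2C, 4C and 8C library, as log2(TPM + 1) on the vertical axis and genotype on the horizontal axis. Points are embryos and bars are the mean ± SD; a row shares its vertical scale. Glrx2 in all 10 mz_NrKO and all 10 mz_DKO 8C embryos is above the mz_DHet median, and 8C mz_EKO differs from mz_DHet by −0.10 for Glrx2.

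Stage markers moved with the 8C groups. The 6 markers of the 8-cell list summed to a median of 1282 TPM in mz_DHet (334 to 2028) and 1437 in mz_EKO (1059 to 2176), but to 462 in mz_NrKO (185 to 2226) and 359.6 in mz_DKO (177 to 825). The 2-cell list went from 8.16 in mz_DHet to 141 in mz_NrKO and 164 in mz_DKO. Their part in the 8C levels of Rnpep, Glrx2, Elf3 and Arl8a was not tested, and in whole embryos fewer cells of a type and less RNA per cell cannot be told apart. In mz_EKO none of the 7 tested genes was called at 8C (0.00919% of all genes, 257 of 10876 at an unadjusted p under 0.05) or at 4C (0%, 803 of 13044). Glrx2 in mz_EKO differed from mz_DHet by −0.21 ± 0.31 at 4C (adjusted p = 0.953, 3 of 4 embryos below the mz_DHet median) and by −0.10 ± 0.18 at 8C (adjusted p = 1.00, 7 of 10 below). Rnpep differed by 0.47 ± 0.25 at 4C (adjusted p = 0.799, 4 of 4 above). mz_DKO against mz_EKO gave 1.18 for Glrx2 at 4C, where 0 of 7 was called beside 0.698% of all genes and 1575 genes had an unadjusted p under 0.05. Without mz_EKO replicate 2, 1 of 7 was called, with the share over all genes in that fit not given. At 8C it gave 1.88 for Glrx2, 0.73 for Rnpep and −1.42 for Elf3, 3 of 7 called beside 30.2% (13.4% lower, 16.8% higher), and the 2 groups did not overlap for Glrx2 at either stage. How many of all genes had no overlap is not given for either stage.

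The UMI reads, which come from the 5′ ends of transcripts, gave smaller Glrx2 differences than the full-length reads at 4C and 8C. For late 2-cell embryos the authors' deposited table gives Glrx2 1.44 in UMI and 1.32 in full-length reads of mz_NrKO. In mz_DKO it gives 0.85 and 0.61, and none of these passed the authors' FDR of 0.1. At 8C the UMI log2 fold change of Glrx2 fitted here was 0.84 ± 0.29 in mz_NrKO and 0.76 ± 0.23 in mz_DKO, against 1.14 and 1.78 in full-length reads. The 8C UMI groups are smaller (16 mz_DHet, 9 mz_EKO, 5 mz_NrKO and 9 mz_DKO embryos) and hold none of 15 July. In full-length reads of 8 March alone the values were 1.42 and 1.97. At 4C, where both read types cover the same embryos, it was −0.11 ± 0.38 in mz_NrKO and 0.20 ± 0.31 in mz_DKO, against 1.31 and 0.98. The UMI level was 54.0, 55.4 and 101 TPM in 4C mz_DHet and 22.1, 51.5 and 86.1 in mz_NrKO, so those groups overlapped. For Rnpep the UMI values were close to the full-length ones, at 0.95 ± 0.24 in mz_NrKO and 0.80 ± 0.19 in mz_DKO at 4C, and the 4C mz_NrKO and mz_DHet groups again did not overlap (ratio of means 1.90). For Elf3 at 8C they were −2.42 ± 0.46 and −1.49 ± 0.37. The difference between read types was not tested. Over 6 genes tested in UMI reads at 8C, 3 were called in mz_NrKO (beside 25.4% of all genes, 10.2% lower and 15.1% higher) and 4 in mz_DKO (beside 34.6%, 15% lower and 19.6% higher), the fourth being Fam72a at 1.05 ± 0.28. The same 4 were called in 8C mz_DKO against mz_EKO (31.8% of all genes, 14.4% lower and 17.4% higher). At 4C, UMI reads gave 0 of 6 called in mz_NrKO (0.159% of all genes) and 1 of 6, Rnpep, in mz_DKO (1.17%, with 0.281% higher). At L2C they gave 0 of 7 called in mz_NrKO (0% of all genes), mz_DKO (0.017%) and z_NrKO (0.017%), and 1 of 7 in mz_DKO against mz_EKO, Chit1 at −3.06 ± 0.50, beside 0.034% of all genes and 0.017% called lower.

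**Figure D5:**
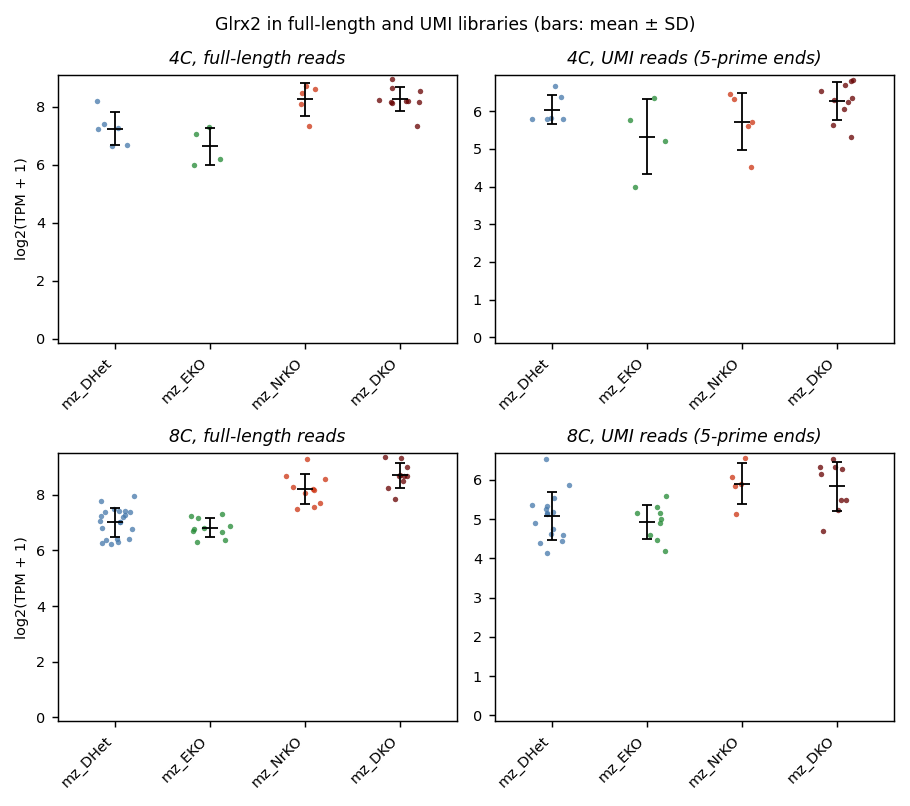
Glrx2 in full-length (left) and UMI (right) libraries at 4C (top) and 8C (bottom), as log2(TPM + 1) on the vertical axis and genotype on the horizontal axis. Points are embryos and bars are the mean ± SD. The rise in 4C mz_NrKO in full-length reads (1.31) is not seen in UMI reads (−0.11), and at 8C both read types are higher in mz_NrKO and mz_DKO.

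Across the 22 genotype and stage groups the 9 genes followed different courses. Rnpep and Glrx2 had higher group means after E2C (Pearson r = 0.83 over 22 group means of log2(TPM + 1)), and Nav1 went the other way from Glrx2 (r = −0.79). These groups share stages, and the values describe the course through development. By the same measure over 16401 genes, the gene most like Rnpep was Cnn2 (0.97), most like Glrx2 Ppif (0.98), most like Elf3 Tes (0.97), most like Klhl12 Rdh10 (0.95) and most like Fam72a Susd3 (0.96). The second matches were Asb13 (0.97) for Rnpep, Gm2395 (0.98) for Glrx2, Rian (0.93) for Elf3, Arhgap29 (0.95) for Klhl12 and Acsl3 (0.96) for Fam72a. The closest matches were weaker for Nav1 (Gm13331, 0.90), Colgalt2 (Gm9519, 0.85), Arl8a (Nploc4, 0.76) and Chit1 (Vps13d, 0.72).

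Relatives and partners of the 9 genes were examined as 59 listed genes, 58 of which had values. None of 34 tested was called in any oocyte comparison, none of 43 at E2C and none of 49 at L2C. Without mz_NrKO replicate 1, 2 were called in E2C mz_NrKO against mz_NrHet. The share over all genes is not given for that fit, nor for the 4C fit below with a library left out. In 4C mz_NrKO 0 of 49 was called (1 without mz_NrKO replicate 3), and in 4C mz_DKO 3 of 49 (6.12%, beside 2.58% of all genes): Borcs6, a subunit of the complex that recruits Arl8 to lysosomes, went from 181 TPM in mz_DHet to 86.1 in mz_DKO (log2 −1.14 ± 0.29, limma adjusted p = 0.0305), Glrx, the cytosolic glutaredoxin, fell by 2.36 (adjusted p = 0.0390), and Plod3, a collagen lysyl hydroxylase, rose by 1.43 (adjusted p = 0.0422). At 8C 12 of 45 (26.7%) were called in mz_NrKO, 11 lower and 1 higher, near the 28.3% over all genes. Arl8b, the close relative of Arl8a, was lower there as well, at 279 against 442 TPM (−0.69 ± 0.13, adjusted p = 3.75e-05), as were Txn2 (−0.60) and Glrx5 (−0.93), mitochondrial redox proteins, while Glrx2 was higher. In mz_DKO 18 of 45 (40%) were called beside 33.7% of all genes, 12 lower and 6 higher (14.8% and 18.9% of all genes). Among the 6 higher were Gsr, glutathione reductase, from 65.3 to 153 TPM (0.97 ± 0.17), and Cul3, the scaffold to which Klhl12 binds, from 45.2 to 87.0 TPM (1.05 ± 0.20). Borcs6 was higher as well (1.43 ± 0.39), opposite to its direction in 4C mz_DKO. The other called relatives or partners of Klhl12 were lower: Pef1 (−0.79), Dvl3 (−0.56), Pdcd6 (−0.56) and Sec13 (−0.24). In mz_EKO 0 of 45 was called at 8C.

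Within 10 Mb of Nr5a2, members included, 4 of 82 tested genes (4.88%) were called in 4C mz_DKO beside 2.58% of all genes, 16 of 57 (28.1%) in 8C mz_NrKO beside 28.3%, and 19 of 57 (33.3%) in 8C mz_DKO beside 33.7%. Kdm5b, a histone demethylase, rose by 1.21 and 1.73 in 8C mz_NrKO and mz_DKO. In mz_EKO, the region within 10 Mb of Esrrb on chromosome 12 held 0 called genes of 146, 136 and 100 tested at L2C, 4C and 8C. Over all genes 0%, 0% and 0.00919% were called in those comparisons, so a count of 0 says nothing about the region. In 8C mz_NrKO the region held 44 of 100, beside 28.3% of all genes.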

How the data were processed

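Single oocytes and embryos gave 263 full-length libraries, and 110 libraries of UMI reads at L2C, 4C and 8C. UMI reads of oocytes and E2C embryos were not analysed here. Values are TPM as deposited by the authors, who used cutadapt, STAR and RSEM with build mm10, per the submitters' processing notes, with versions not given in the sources used here. The authors also deposited log2 fold changes and false discovery rates (adjusted p-values), for which the notes name DESeq2 and, per the file headers, the thresholds were 10 TPM, a 1.5-fold change and an FDR of 0.1.

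Here log2(TPM + 1) was fitted with limma 3.58.1 in R 4.3.3, with 1 fit per stage and read type, genotype and collection date as factors, and an intensity trend. A gene needed 5 TPM in as many libraries of a stage as its smallest group holds. P-values were two-sided and Benjamini-Hochberg adjusted over all genes tested, and a gene was called under 0.05. Fold changes are on the log2(TPM + 1) scale, which understates changes of low genes. An exact 0 may be a failed estimate and is given as listed at 0. TPM keep no depth, so no counting interval is given. The 65 entries without a gene name were left out. The code was tested on simulated data. Tables and plots used the data.table package, version 1.17.8, and Python 3.11.15, pandas 2.3.3 and matplotlib 3.10.9.

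The 9 genes and the lists of relatives and markers were chosen with earlier results of these data known. Beside the 9 genes, the text names genes from those lists, up to 3 called genes within 10 Mb of Nr5a2 per comparison, and the 2 genes most alike in pattern to each. Positions come from GENCODE vM21 and promoters from RefSeq GRCm38.p6. Replicate numbers were checked as pairs in 26 comparisons. In 1 of them, NrHet against Nrpp oocytes, all 9 same-numbered pairs of libraries had deviations correlated above 0.1 (0.11 to 0.25). With collection date removed, 0 of the 9 did (−0.10 to 0.05), and with the number as a block 0 of 6 genes was called. Alternatives covered pseudocount, filter, scaling, date, block, control group, read type, window and left-out libraries. One, leaving out NrHet oocytes 16 to 18, was chosen after seeing the data.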

Additional observations from a re-analysis of the deposited data

Results flagged for a closer look

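Within groups of 4 to 10 libraries, the highest or lowest library of a gene could stand far from its nearest neighbour (Dixon's 95% criterion). This was so in 24 of 126 pairs of gene and group (19.0%). The criterion flags about 1 in 20 only where values are normally distributed. It was applied to TPM, of which many are listed at 0, and a group with 1 library above 0 is flagged by construction. The share is therefore not read as an excess over chance. The cause of these values was not tested.

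For the genes nearest to Nr5a2 these libraries were as follows. Nav1 was 5.27 TPM in replicate 6 of L2C mz_NrKO and 3.20 TPM in replicate 1 of 4C mz_EKO. Rnpep was 113.1 TPM in replicate 1 of L2C z_NrKO and 559.2 TPM in replicate 6 of 4C mz_DKO. Elf3 was 62.0 TPM in replicate 3 of L2C mz_NrKO, 6.35 TPM in replicate 1 of 4C mz_DHet and 13.9 TPM in replicate 2 of 4C mz_EKO. At 8C it was 465.2 TPM in replicate 6 of mz_EKO and 301.4 TPM in replicate 9 of mz_DKO. Arl8a was 8.92 TPM in replicate 5 of Nrpp oocytes and was listed at 0 in replicate 4 of L2C z_NrHet.

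Klhl12 was 127.9 TPM in replicate 1 of L2C mz_EKO, and Fam72a was 30.2 TPM in replicate 4 of 4C mz_DKO. Chit1 was 19.4 TPM in replicate 1 of 4C mz_EKO and 4.49 TPM in replicate 8 of 4C mz_DKO. Glrx2 was 4.18 TPM in replicate 4 of Nrpp oocytes, 291.0 TPM in replicate 1 of 4C mz_DHet and 626.0 TPM in replicate 7 of 8C mz_NrKO. Colgalt2 was 5.05 TPM in replicate 6 of L2C mz_DHet and 30.1 TPM in replicate 9 of L2C mz_EKO. It was 1.61 TPM in replicate 1 of 4C mz_EKO. At 8C it was 0.412 TPM in replicate 1 of mz_EKO, 2.07 TPM in replicate 9 of mz_NrKO and 0.701 TPM in replicate 6 of mz_DKO. Replicate 1 of 4C mz_EKO stood apart in Nav1, Chit1 and Colgalt2. It is the single 4C mz_EKO embryo of 17 June, the other 3 being of 22 May. Chit1 in 4C mz_DHet was likewise 7.10 to 32.0 TPM in 5 embryos of 17 June and listed at 0 in 1 embryo of 22 May.

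Rnpep differed in opposite directions at 2 stages, with no overlap of the groups at either. The ratio of means was 0.468 in NrKO against Nrpp oocytes and 1.81 in mz_NrKO against mz_DHet at 4C. The difference between the stages was not tested, and the share of all genes without overlap is not given at either stage.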

How the results depend on the processing

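Of the 40 called differences of the 9 genes, recomputed 434 times, 432 values had the same sign. The 2 of opposite sign were Glrx2 in 4C mz_NrKO in UMI reads (−0.11) and Arl8a in 8C mz_NrKO on 15 July (0.32). Chit1 in mz_NrHet against mz_Nrpp, not called, was 0.37 on 11 January. The cause was not tested unless fewer libraries or other genes tested define the setting.

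Counts of the 9 genes called moved as follows. Except for UMI reads, shares called over all genes are not given for these settings, so the counts are not set against the rest of the genome. In oocytes NrKO against NrHet (5) gave 2 without the filter, 3 without date, 1 on 5 June and 2 on 20 June, and against Nrpp (4) it gave 2 on 20 June. At E2C, mz_NrKO (4) gave 0 on 1 August and 0 on 14 November against mz_NrHet, and 0 and 1 against mz_Nrpp. m_NrKO (3) gave 1 and 0 against mz_NrHet, and 1 and 1 against mz_Nrpp. z_NrKO gave 0 against mz_NrHet and 1 against mz_Nrpp, and the latter was 0 at a pseudocount of 0.1, without the filter, on 1 August and on 11 January. mz_NrKO against z_NrKO (1) gave 0 without the filter, with a filter of 1 TPM, with only both groups fitted and on 1 August, and 2 without date or with median-of-ratios scaling. m_NrKO against z_NrKO (0) gave 1 at a pseudocount of 5, with that scaling or without mz_NrKO replicate 1. At L2C without date, mz_NrKO and mz_EKO (0 each) gave 1 each, and mz_DKO against mz_EKO (1) gave 0 at a pseudocount of 0.1. At 4C, mz_NrKO (1) gave 0 without the filter, without date, with only both groups fitted, on 17 June and in UMI reads, and 0 to 1 when single libraries were left out. mz_DKO (3) gave 1 in UMI reads. mz_DKO against mz_EKO (0) gave 1 at a pseudocount of 5 or without date, and 0 to 1 with single libraries left out. At 8C mz_NrKO (4) gave 0 on 15 July.

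With the replicate number as a block, the numbers pairing no libraries by the check in these comparisons, 4C mz_DKO gave 0 and 4C mz_NrKO 0. The block also gave 0 in z_NrKO against mz_Nrpp and in mz_NrKO against z_NrKO at E2C, 0 in mz_DKO against mz_EKO and 1 in z_NrKO at L2C, and left 4 in oocytes and 4 in E2C mz_NrKO. Within 10 Mb the block gave 0 in 4C mz_DKO, and among relatives 0 in 4C mz_DKO and 6 in 8C mz_NrKO.

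For the region and the relatives, too, shares over all genes are not given except for UMI reads and the 20 Mb window. Genes called within 10 Mb moved in oocytes against NrHet (5) to 2 without the filter, 3 without date, 1 on 5 June and 2 on 20 June, and against Nrpp (5) to 3 without date and 2 on 20 June. In E2C mz_NrKO (4) they moved to 9 with median-of-ratios scaling, 0 on 1 August, 11 on 7 November, 0 on 14 November, 10 without replicate 1 and 12 within 20 Mb. In 4C mz_DKO (4) they moved to 2 without the filter, 1 in UMI reads and 7 within 20 Mb. In 8C mz_NrKO (16) they were 3 on 15 July and 40 within 20 Mb, and in 8C mz_DKO (19) 48 within 20 Mb. Relatives called in E2C mz_NrKO (0) were 1 with that scaling, 1 on 7 November and 2 without replicate 1. At L2C without date they were 4 in mz_NrKO and 1 in mz_EKO, and in 4C mz_NrKO 0 to 1 with single libraries left out. In 4C mz_DKO (3) they were 1 at a pseudocount of 0.1, 0 without the filter and 1 without date, and in 8C mz_NrKO (12) 0 on 15 July and 6 in UMI reads.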

Other observations

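The authors' deposited table, which rests on another test, lists some differences of these genes that did not pass the test used here. Which of the differences called here fail the authors' thresholds is not given, so the examples below are not a full comparison of both tests. For Fam72a it gives −0.41 (log2 fold change, FDR 0.0311) in NrKO against Nrpp oocytes. For Arl8a it gives −3.40 (FDR 0.0256) in late 2-cell mz_DKO. For Nav1 at 8C the authors' deposited table gives −2.85 in full-length reads of mz_NrKO but 0.28 (FDR 0.812) in UMI reads, which come from the 5′ ends of transcripts.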
